A study of Mus musculus with 56 samples.

Results

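Monocytes and macrophages were sorted 4 days after a volumetric muscle loss defect, an injury in which a block of muscle is removed, from mice depleted of regulatory T cells (Tregs) and from control mice, and their RNA was sequenced in bulk. The Treg-depleted group came from Foxp3(DTR/GFP) mice, which carry the diphtheria toxin receptor at the Foxp3 locus and were given diphtheria toxin (DT). The control group came from wild-type C57BL/6J mice given the same toxin at 20 ng/g into the peritoneum, from 2 days before injury, so both groups carry the toxin and genotype and depletion cannot be told apart. All mice were 10 weeks old and each had 1 injury. Each group has 3 libraries, so the 6 libraries described here are 6 of the 56 in the series. Libraries were chosen by their titles, not by their values. The 6 muscle libraries of day 7 (3 Treg-depleted, 3 control) and the 8 skin wound libraries of day 4 (4 and 4) are used only to test where muscle at day 4 differs. Whether each library stands for its own animal is not stated in the labels. The tests therefore weigh differences against the spread among libraries, some of which may be technical.

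Tregs are CD4+ T cells that need the transcription factor Foxp3. They restrain other lymphocytes, among them T and natural killer (NK) cells that make interferon gamma (IFN-γ), and in injured muscle they are also known to act on macrophages and muscle stem cells. IFN-γ binds a receptor on macrophages and turns on genes for GTPases that attack vacuoles of microbes, for CXCR3 ligands that draw T cells, and for the processing of peptides onto MHC class I. Macrophages of a muscle wound arrive as monocytes, clear debris and red cells, and later take on repair functions, while resident macrophages carry scavenger and lectin receptors.

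Total counts were 4317235, 4371642 and 5353931 in the Treg-depleted libraries and 4819826, 5325379 and 6397434 in the control libraries. Foxp3, the gene behind the depletion, had 0, 0 and 2 counts in Treg-depleted libraries and 0, 0 and 0 in control libraries. At this depth it checks neither group, since the sorted cells are not T cells. The 12 macrophage and monocyte identity genes were present in all libraries. Their summed level was 16010 to 17710 CPM (counts scaled to the library total) in Treg-depleted and 18020 to 19340 CPM in control libraries. The exact two-sided permutation test gave p = 0.1, the smallest that 3 against 3 allows. As CPM of TMM library sizes the sum was 14400 to 18700 in Treg-depleted and 18060 to 19810 in control libraries, with overlap. On that scale the exact two-sided permutation test gave p = 0.2. Lyz2 weighs most in this sum, with 159176 counts over the Treg-depleted and 218478 over the control libraries. Aif1, the next largest, went the other way, with 23487 and 20986 counts. Adgre1, which encodes F4/80, averaged 348 ± 42.5 CPM in Treg-depleted and 351 ± 25.0 CPM in control libraries (SD, n = 3 each). Treg-depleted replicate 1 stood apart from the other Treg-depleted libraries. Its normalization factor was 1.1167, against 0.9505 to 1.0084 in the other 5 libraries, and chi-square per degree of freedom was 12.1 and 13.1 between it and the other Treg-depleted replicates, against 6.44 between those and 6.24 to 8.55 among controls. Results that rest on it are given with and without it.

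Promoters of 3 genes are shown because the results turn on 2 gene groups, the IFN-γ inducible GTPases and the heat shock genes. They are bases 250 to 41 before the RefSeq start (GRCm38.p6), on the strand of the gene. Capitals mark cores of the interferon-stimulated response element (GAAA, any 2 bases, then GAAA) and the gamma-activated site (TTCNNNGAA) in Tgtp1 (chr11:48992287-48992496, minus strand) and Gbp5 (chr3:142496684-142496893, plus strand), and a pair of inverted heat shock units (GAANNTTC) in Hspa1a (chr17:34972197-34972406, minus strand). No exon of GENCODE release M21 overlaps these stretches. In that release the Tgtp1 and Gbp5 genes span 48985327 to 48994172 and 142493978 to 142522344. Their stretches thus lie inside the annotated genes, downstream of the first annotated start, while that of Hspa1a lies outside its gene.
Tgtp1: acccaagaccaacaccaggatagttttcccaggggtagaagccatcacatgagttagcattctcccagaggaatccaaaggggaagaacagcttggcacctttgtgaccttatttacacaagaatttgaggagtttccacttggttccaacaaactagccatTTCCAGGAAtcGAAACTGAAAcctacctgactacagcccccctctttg
Gbp5: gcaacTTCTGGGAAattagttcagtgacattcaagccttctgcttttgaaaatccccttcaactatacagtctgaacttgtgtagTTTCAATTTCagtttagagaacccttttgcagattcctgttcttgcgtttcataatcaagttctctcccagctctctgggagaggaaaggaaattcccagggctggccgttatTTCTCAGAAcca
Hspa1a: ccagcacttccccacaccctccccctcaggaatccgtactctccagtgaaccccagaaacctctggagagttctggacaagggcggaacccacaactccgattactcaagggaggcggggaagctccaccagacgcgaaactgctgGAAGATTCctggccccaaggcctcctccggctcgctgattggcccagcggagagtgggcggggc

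Both strands were searched. The response element core occurred within 250 bases before the start in 10 of the 11 GTPase promoters in the RefSeq table (90.9%), against 821 of all 27025 promoters (3.04%). TTCNNNGAA, the gamma-activated site core, occurred in 6 of those 11 (54.5%), against 1940 of 27025 (7.18%). GAANNTTC occurred in 5 of 12 heat shock gene promoters (41.7%), against 1833 of 27025 (6.78%), and the other arrangement of the pair, TTCNNGAA, in 2 of 12 (16.7%), against 1920 of 27025 (7.1%). The windows of Hspa1a and its neighbour Hspa1b had 247 of 250 bases equal. Since the GTPase list was drawn up as genes that IFN-γ induces, its shares are no test of the values measured here. Its members are also not independent, since Tgtp1 and Tgtp2 share sequence, as do Igtp and Irgm2. Of the 20 genes called below, 13 have a promoter in the table. Of these 13, 3 held the response element core (23.1%), namely Calhm6, Tgtp1 and Tgtp2. TTCNNNGAA occurred in 2 (15.4%), GAANNTTC in 3 (23.1%) and TTCNNGAA in 1 (7.69%).

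Few genes passed the test at day 4. Of 12907 genes tested with edgeR's quasi-likelihood test, 20 had a Benjamini-Hochberg adjusted p under 0.05 (0.155%) and are called changed here: 7 rose (0.0542%) and 13 fell (0.101%) in Treg-depleted libraries. At an unadjusted p under 0.05 there were 461 higher (3.57%) and 628 lower genes (4.87%). The 3 Treg-depleted libraries lay wholly above the 3 control libraries in 934 genes (7.24%) and wholly below in 1006 (7.79%). The number called rests on single libraries: it was 4 without Treg-depleted replicate 1, 25 without replicate 2 and 2 without replicate 3, and 3, 10 and 8 without control replicates 1, 2 and 3. DESeq2 called 93 and limma-voom 4, which were Hspa1a, Hspa1b, Fxyd2 and Ccl12. All 20 kept their direction in each of the 13 other settings tried.

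**Figure D1:**
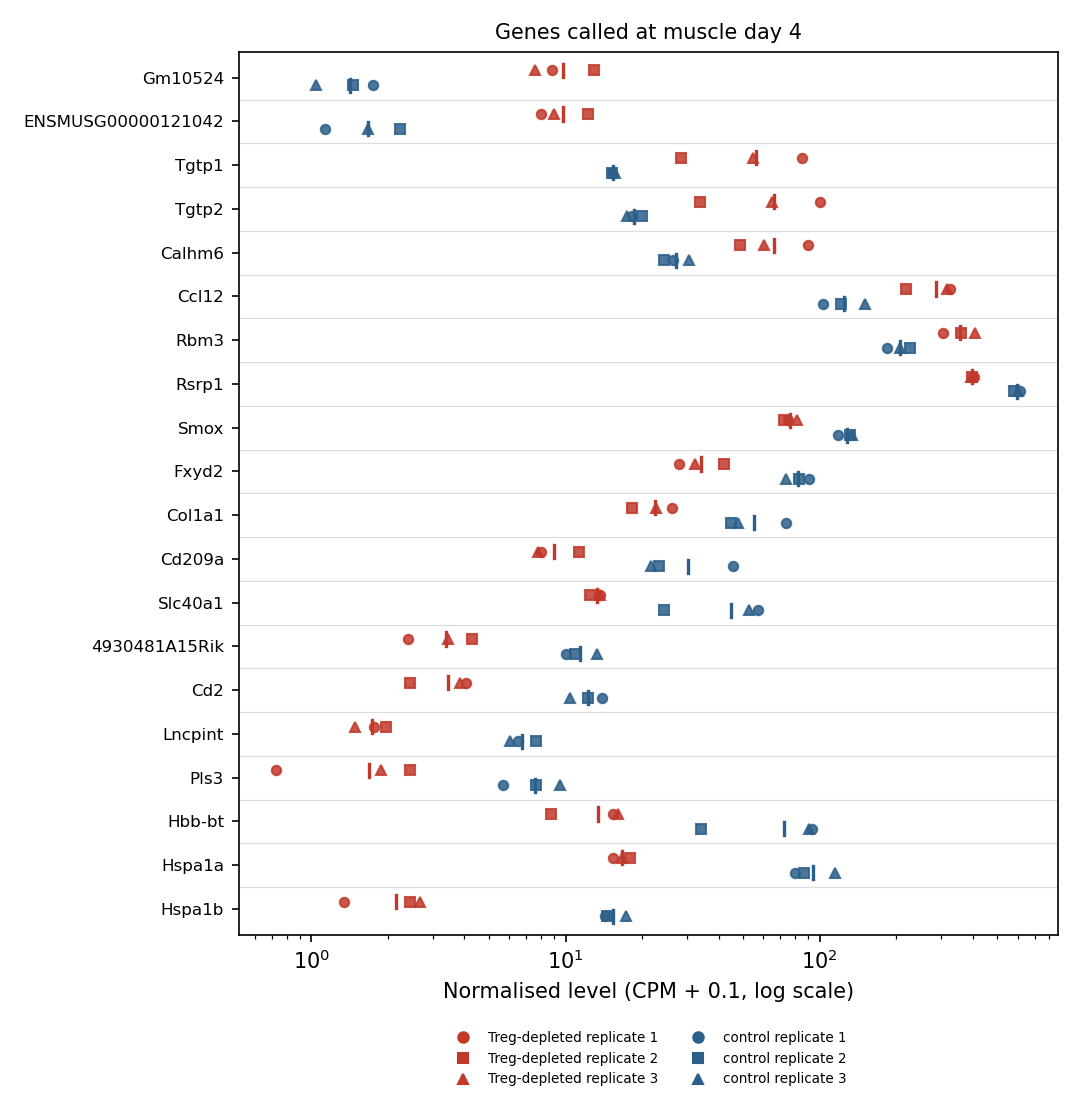
Normalised level of the 20 called genes in each of the 6 libraries (log axis, CPM + 0.1), with the Treg-depleted libraries above the control libraries of each gene and a vertical bar at each group's mean. In each gene the 3 Treg-depleted libraries lie wholly to one side of the 3 control libraries, with 7 genes higher and 13 lower.

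Hspa1a and Hspa1b, which encode the stress-inducible chaperone HSP70, fell and were the called genes whose call held with every library left out and in every other setting. Hspa1a (chromosome 17, 34969190 to 34972156, GRCm38) was at 15.2, 17.7 and 16.6 CPM in Treg-depleted libraries, against 79.5, 86.5 and 115 CPM in control libraries. The groups were far apart, with little spread among the Treg-depleted libraries, and the log2 change was -2.51 ± 0.17 (SE; adjusted p = 1.73e-07). Hspa1b (chromosome 17, 34956436 to 34959238) was at 1.25, 2.33 and 2.56 CPM in Treg-depleted libraries, against 14.2, 14.5 and 17.2 CPM in control libraries, a log2 change of -2.89 ± 0.34 (adjusted p = 0.000616). Of the 31-base words of Hspa1a 63.8% occur in Hspa1b, so reads may have been divided between them.

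The rest of the heat shock list did not pass the test. Of 15 tested members 2 fell, 6 were lower at an unadjusted p under 0.05 and 7 had no overlap, with a median log2 change of -0.33 against -0.001 over all genes. Hsp90ab1, a cytosolic chaperone, was at 512, 640 and 510 CPM in Treg-depleted libraries and 736, 750 and 715 CPM in control libraries (log2 -0.40 ± 0.13, adjusted p = 0.316). Dnajb1, the HSP40 partner of HSP70, overlapped, with 37.3, 39.2 and 35.7 CPM in Treg-depleted libraries and 44.2, 46.3 and 36.0 CPM in control libraries.

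Immediate early genes, which are switched on within minutes by stress or cell handling, were lower without passing the test. None of 24 was called, 13 were lower and 0 higher at an unadjusted p under 0.05, 13 had no overlap, and the median log2 change was -0.39. Nr4a2, a nuclear receptor, was at 50.6, 43.4 and 50.7 CPM in Treg-depleted libraries, against 69.0, 76.6 and 93.1 CPM in control libraries (log2 -0.72 ± 0.15, adjusted p = 0.0582). Fos was at 819.6, 963 and 968 CPM in Treg-depleted libraries and 1287, 1260.3 and 1209 CPM in control libraries (-0.45 ± 0.13, adjusted p = 0.265). Dusp1, a phosphatase of MAP kinases, was at 1105, 1189.7 and 1298 CPM in Treg-depleted libraries and 1852, 1639 and 1729.5 CPM in control libraries (adjusted p = 0.292). The number lower at an unadjusted p under 0.05 was 7 without Treg-depleted replicate 1 and 8 without control replicate 1. DESeq2 called 3 of the 24 lower and limma-voom 0.

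Among genes that IFN-γ turns on, the GTPases Tgtp1 and Tgtp2 rose. Tgtp1 (chromosome 11, 48985327 to 48994172), whose promoter is printed above, was at 85.2, 28.3 and 54.4 CPM in Treg-depleted libraries, against 15.1, 15.1 and 15.5 CPM in control libraries. The controls were nearly equal while the Treg-depleted libraries spread widely, all above them (log2 1.88 ± 0.30, adjusted p = 0.0165). Tgtp2 (chromosome 11, 49057194 to 49064206), which shares 90.5% of its 31-base words with other genes, was at 99.95, 33.6 and 65.1 CPM in Treg-depleted libraries and 18.2, 19.9 and 17.4 CPM in control libraries (1.84 ± 0.30, adjusted p = 0.017). Both calls held without Treg-depleted replicate 2 and were lost without any other single library, with limma-voom and in a fit of the 6 libraries alone.

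The 17 tested IFN-γ inducible GTPases were all higher on average in Treg-depleted libraries, by log2 changes of 0.53 to 2.97 with a median of 1.79, but 2 passed the test. At an unadjusted p under 0.05 15 of 17 were higher, and 10 had no overlap. Gbp2, a guanylate-binding protein that coats microbe vacuoles, was at 212, 44.8 and 86.2 CPM in Treg-depleted libraries and 25.0, 38.9 and 34.9 CPM in control libraries (adjusted p = 0.283). Iigp1, an immunity-related GTPase, was at 174, 24.1 and 47.3 CPM in Treg-depleted libraries and 6.19, 13.7 and 11.3 CPM in control libraries (2.97 ± 0.69, adjusted p = 0.197). Gbp5, which takes part in inflammasome activation and whose promoter is printed above, was at 52.3, 15.4 and 22.3 CPM in Treg-depleted libraries and 5.37, 9.29 and 7.52 CPM in control libraries (2.02 ± 0.39, adjusted p = 0.0529). In each of these genes replicate 1 was the highest Treg-depleted library and replicate 2 the lowest, above all controls.

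Treg-depleted replicate 1 was the highest of its group in 17 of 17 GTPases. The median member was 2.45, 0.43 and 0.88 above the control mean (log2) in Treg-depleted replicates 1, 2 and 3, against -0.01, -0.03 and 0.08 in control replicates 1, 2 and 3. Replicate 1 was above all controls in 17 members, replicate 2 in 11 and replicate 3 in 16. Without replicate 1 the median log2 change was 0.64, 16 of 17 were positive, 10 had an unadjusted p under 0.05 and 0 were called. Without replicate 2 the median was 2.17 and 7 were called, and 0 were called without Treg-depleted replicate 3 or any 1 control. DESeq2 called 7 and limma-voom 0. Because Gbp3, Gbp4, Gbp6 to Gbp10, Igtp, Iigp1, Irgm2, Tgtp1 and Tgtp2 share sequence with other genes, the split of reads among them is uncertain.

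**Figure D2:**
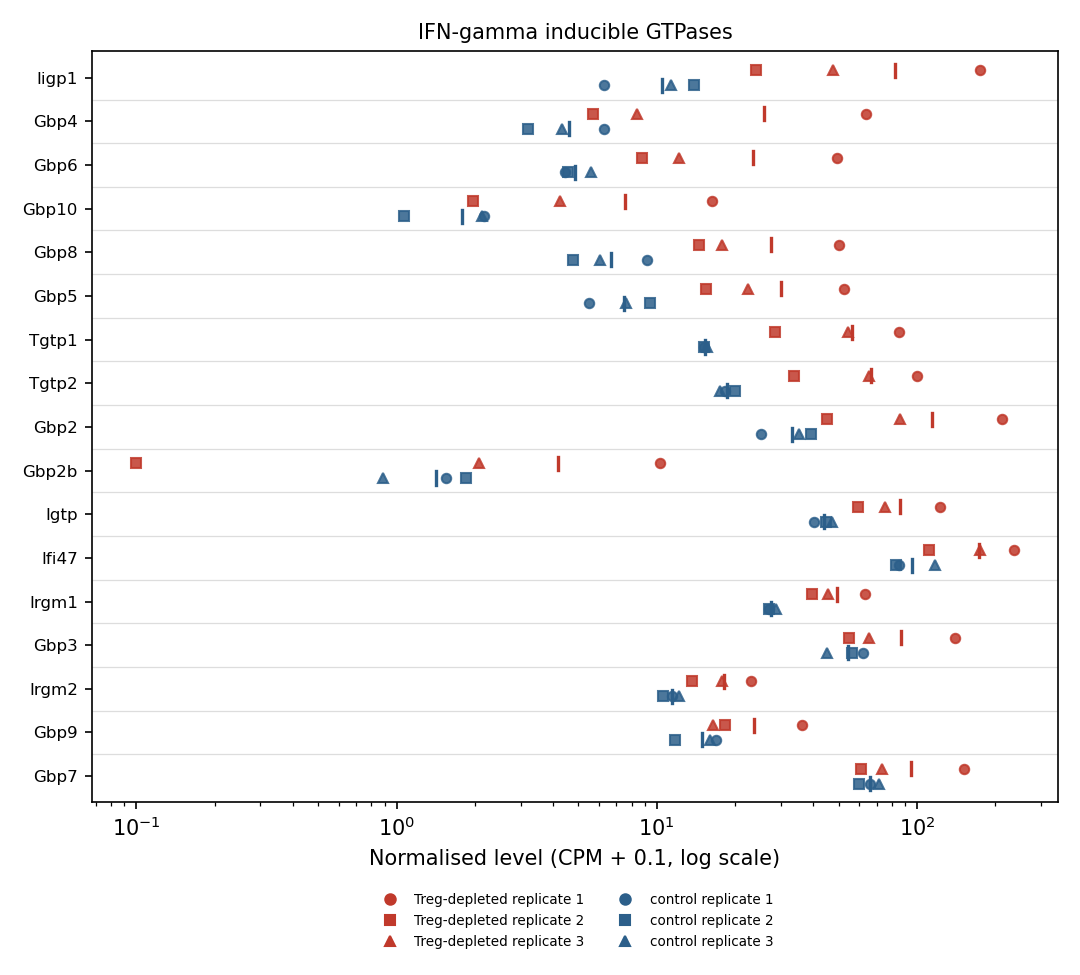
Normalised level of the 17 tested interferon gamma inducible GTPases in each library (log axis, CPM + 0.1), Treg-depleted above control for each gene, with a bar at each group's mean. Treg-depleted replicate 1 is the highest Treg-depleted library in all 17 GTPases, and replicate 2 is the lowest in most.

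Other IFN-γ targets were higher without passing the test. Of 10 tested CXCR3 ligands and related targets 0 were called (6 higher and 0 lower at an unadjusted p under 0.05; DESeq2 2, limma-voom 0), with a median log2 change of 0.78, or 0.21 without Treg-depleted replicate 1. Cxcl9, a ligand that draws CXCR3+ T cells, was at 79.1, 9.34 and 21.1 CPM in Treg-depleted libraries, against 4.13, 5.61 and 3.60 CPM in control libraries (3.04 ± 0.86, adjusted p = 0.321). Cxcl10, a second such ligand, was at 75.8, 43.0 and 51.1 CPM in Treg-depleted libraries and 14.0, 25.9 and 33.4 CPM in control libraries (1.20 ± 0.36, adjusted p = 0.301). Both were without overlap. Irf1, a transcription factor that interferons induce, was at 125, 65.4 and 84.4 CPM in Treg-depleted libraries and 58.0, 44.1 and 45.4 CPM in control libraries (adjusted p = 0.176).

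For the loading of MHC class I, 0 of 18 genes were called, 10 were higher and 0 lower at an unadjusted p under 0.05, 7 had no overlap and the median log2 change was 0.55. Without Treg-depleted replicate 1 the median was 0.32 and 5 had an unadjusted p under 0.05, and without control replicate 1 6 did. DESeq2 called 3 and limma-voom 0. Tap1, the peptide transporter, was at 245, 139 and 142 CPM in Treg-depleted libraries, against 92.7, 105 and 86.5 CPM in control libraries (0.89 ± 0.21, adjusted p = 0.121). Psmb9, a subunit of the immunoproteasome, was at 368, 254 and 291 CPM in Treg-depleted libraries and 170.1, 170.1 and 202 CPM in control libraries (0.75 ± 0.19, adjusted p = 0.152). Both were wholly above their controls. Of MHC class II genes 0 of 11 were called, 0 at an unadjusted p under 0.05 in either direction, with a median of -0.08 (DESeq2 and limma-voom 0). Of the antiviral genes of type I interferon 0 of 33 were called (1 higher and 2 lower at an unadjusted p under 0.05; DESeq2 and limma-voom 0). Their median was -0.13, -0.03 without Treg-depleted replicate 2, -0.23 without control replicate 1 and 0.04 without control replicate 3.

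IFN-γ itself was near the limit of detection: Ifng had 1, 0 and 0 counts in Treg-depleted libraries and 0, 0 and 0 in control libraries. Genes of T and NK cells were scarce. Over 23 markers the summed level was 15.9 to 32.4 CPM in Treg-depleted libraries and 23.1 to 35.1 CPM in control libraries (exact permutation p = 0.4). Cd2 and Cd4 had the most counts and weigh most in this sum. They had 48 and 74 counts over the Treg-depleted libraries and 196 and 98 over the control libraries. Of the 12 tested, 3 were higher and 2 lower at an unadjusted p under 0.05. By direction 8 were positive and 4 negative, with no overlap in 4 higher and 2 lower. Their median log2 change was 1.302, and 0.865 without Treg-depleted replicate 1. It was -0.845 in the fit of the 6 libraries, where 4 were tested. Cd3d, a chain of the T cell receptor complex, had 11, 5 and 6 counts in Treg-depleted libraries and 0, 1 and 1 in control libraries. Trac, the constant part of the T cell receptor alpha chain, had 3, 4 and 6 in Treg-depleted libraries and 0, 1 and 0 in control libraries. Ncr1 and Prf1, markers of NK and cytotoxic cells, had 0 in all 6. Gzma, a granzyme of such cells, had 15, 5 and 1 counts in Treg-depleted libraries and 2, 2 and 1 in control libraries. Nkg7, a granule protein, had 13, 9 and 2 in Treg-depleted libraries and 5, 5 and 3 in control libraries. Klrd1, an NK receptor, had 19, 14 and 2 in Treg-depleted libraries and 13, 32 and 3 in control libraries, so these genes were low in replicate 3 of both groups. Treg-depleted replicate 1, the highest for the GTPases, was also the highest Treg-depleted library in 9 of the 12 tested markers. The median marker was 0.91, 0.18 and 0.06 above the control mean (log2) in Treg-depleted replicates 1, 2 and 3, against 0.16, 0.06 and -0.27 in control replicates 1, 2 and 3. The part of T and NK cell RNA in the result for the IFN-γ genes was not tested. Cd2, an adhesion receptor in the same marker list, fell (log2 -1.83 ± 0.33, adjusted p = 0.0255). It was at 3.96, 2.33 and 3.75 CPM in Treg-depleted libraries and 13.8, 12.2 and 10.3 CPM in control libraries. Over the control libraries Cd2 had 196 counts, against 2 for Cd3d and 1 for Trac. From which cells the Cd2 RNA came was not tested. In bulk RNA, fewer cells of a type and less RNA per cell cannot be told apart.

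Calhm6, a channel protein of activated macrophages (chromosome 10, 34126067 to 34127984), rose. It was at 89.5, 48.6 and 60.3 CPM in Treg-depleted libraries, against 26.4, 24.2 and 30.4 CPM in control libraries (log2 1.29 ± 0.23, adjusted p = 0.0255), again highest in replicate 1. Its promoter window held 1 interferon-stimulated response element core. The call was lost with limma-voom and without any single library except Treg-depleted replicate 2.

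Ccl12, a chemokine that draws monocytes through CCR2 (chromosome 11, 82101845 to 82103400), rose. It was at 325, 219 and 318 CPM in Treg-depleted libraries, against 103, 121 and 150.1 CPM in control libraries, without overlap (log2 1.20 ± 0.21, adjusted p = 0.0201). DESeq2 and limma-voom also called it, but the call was lost without Treg-depleted replicate 1 or 3 or control replicate 1 or 2, with log2 changes of 1.08 to 1.18. It was the 1 called gene of 13 CC chemokines, of which 4 were higher and 2 lower at an unadjusted p under 0.05. The number lower was 1 without any single library other than Treg-depleted replicate 3. The other 3 higher ones were Ccl2, Ccl7 and Ccl8, near relatives of Ccl12. Ccl2 was at 643, 488 and 669.8 CPM in Treg-depleted libraries and 355, 455 and 454 CPM in control libraries (0.51 ± 0.17, adjusted p = 0.376). Ccl7 was at 498, 443 and 659.7 CPM in Treg-depleted libraries and 325, 397 and 378 CPM in control libraries (0.54 ± 0.16, adjusted p = 0.287). Ccl9, which acts through CCR1, was lower, at 332, 486 and 578 CPM in Treg-depleted libraries and 612, 705 and 691 CPM in control libraries (adjusted p = 0.383). Ccr2 itself, the monocyte receptor, averaged 451 ± 71.9 CPM in Treg-depleted and 532 ± 41.9 CPM in control libraries (adjusted p = 0.687).

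Among genes of iron and haem handling, Slc40a1 fell. It encodes ferroportin, the iron exporter with which macrophages return iron from red cells (chromosome 1, 45908068 to 45926523), and was at 13.5, 12.4 and 13.6 CPM in Treg-depleted libraries, against 57.2, 24.4 and 52.6 CPM in control libraries. The lowest control was above all Treg-depleted libraries (log2 -1.76 ± 0.30, adjusted p = 0.0201). The call was lost with limma-voom and without any single library except control replicate 2. Of 20 tested genes of the list 1 fell, and 6 were lower and 1 higher at an unadjusted p under 0.05. Hmox1, haem oxygenase, was at 87.2, 138 and 202 CPM in Treg-depleted libraries and 209, 263 and 276 CPM in control libraries (-0.81 ± 0.28, adjusted p = 0.406). Slc48a1, which moves haem out of the phagosome, was at 102, 116 and 131 CPM in Treg-depleted libraries and 189.7, 150.4 and 172 CPM in control libraries (-0.56 ± 0.13, adjusted p = 0.121). The ferritin genes Fth1 and Ftl1, which store iron, had log2 changes of -0.24 and -0.19 with overlap.

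Red cell transcripts were also lower at day 4. Hbb-bt, a beta globin (chromosome 7, 103812524 to 103813996), was at 15.2, 8.64 and 16.0 CPM in Treg-depleted libraries, against 92.9, 33.9 and 90.7 CPM in control libraries (log2 -2.44 ± 0.38, adjusted p = 0.0165). Of its 31-base words 59.4% occur in Hbb-bs. The call was lost without Treg-depleted replicate 1 or 3 or control replicate 1 or 3, with limma-voom and in the fit of the 6 libraries. Hba-a1, Hba-a2 and Hbb-bs did not pass the test, at adjusted p-values of 0.0608, 0.0582 and 0.0608, but had log2 changes of -2.38, -2.35 and -2.39 and no overlap. Control replicate 2 was the lowest control for all 4 globins and for Slc40a1. The 10 red cell and platelet markers summed to 1451 to 2324 CPM in Treg-depleted libraries and 2544 to 3450 CPM in control libraries (exact permutation p = 0.1), mostly from Pf4, which macrophages also express. In muscle at day 7 the log2 change was -2.83 for Slc40a1 and 0.09 for Hbb-bt. In skin at day 4 it was -2.02 for Slc40a1 and 0.29 for Hbb-bt. The part of red cell RNA in the result for Slc40a1 was not tested.

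Lectin receptors of the Cd209 family were lower, and 1 passed the test. Cd209a, a DC-SIGN homologue of dendritic cells and some macrophages, fell to 7.91, 11.2 and 7.69 CPM in Treg-depleted libraries, against 45.6, 23.2 and 21.6 CPM in control libraries (log2 -1.75 ± 0.28, adjusted p = 0.0165). The call was lost with limma-voom and without Treg-depleted replicate 1 or 3 or control replicate 1. Cd209f was at 6.46, 5.14 and 4.14 CPM in Treg-depleted libraries and 29.3, 18.0 and 10.5 CPM in control libraries (-1.86 ± 0.38, adjusted p = 0.0608). Cd209d was at 2.08, 1.87 and 1.38 CPM in Treg-depleted libraries and 8.05, 6.58 and 4.86 CPM in control libraries (-1.85 ± 0.39, adjusted p = 0.0688). Of all 19 C-type lectin receptors tested 1 fell, with 4 higher and 6 lower at an unadjusted p under 0.05 (2 higher without Treg-depleted replicate 1 or 3). Dendritic cell markers, a list that holds Cd209a, summed to 114 to 186.5 CPM in Treg-depleted libraries and 155 to 252 CPM in control libraries (exact permutation p = 0.2). Of 10 tested 9 were negative, with 4 lower and 0 higher at an unadjusted p under 0.05. Their median log2 change was -0.58, and -0.66 to -0.40 over 12 other settings (DESeq2 2 lower, limma-voom 0). The part of dendritic cell RNA in the result for Cd209a was not tested.

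The wider resident macrophage list was 0 of 23 called, with 8 lower and 1 higher at an unadjusted p under 0.05 and a median log2 change of -0.29 (DESeq2 2 lower, limma-voom 0). Without Treg-depleted replicate 1 the median was -0.15 and 4 were lower, and without Treg-depleted replicate 2 it was -0.46 and 12 were lower. Siglec1, the sialoadhesin of resident macrophages, was at 12.1, 10.7 and 11.6 CPM in Treg-depleted libraries, against 20.2, 29.0 and 20.1 CPM in control libraries (adjusted p = 0.304). Lyve1, a hyaluronan receptor, was at 6.87, 14.9 and 14.0 CPM in Treg-depleted libraries and 31.2, 21.3 and 19.0 CPM in control libraries (adjusted p = 0.436). Folr2, the folate receptor of such cells, overlapped, with 305, 419 and 529.8 CPM in Treg-depleted libraries and 436, 430 and 504 CPM in control libraries.

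Genes of repair and inflammation in a panel did not pass the test. Arg1, arginase, was at 155, 95.7 and 353 CPM in Treg-depleted libraries and 161, 407 and 234 CPM in control libraries, a wide spread in both groups (log2 -0.41 ± 0.46, adjusted p = 0.872). Igf1, a growth factor for muscle cells, averaged 482 ± 74.2 CPM in Treg-depleted and 529 ± 79.5 CPM in control libraries (adjusted p = 0.875). Tnf averaged 25.3 ± 4.02 CPM in Treg-depleted and 21.9 ± 0.95 CPM in control libraries, and Il1b 158 ± 30.3 CPM in Treg-depleted and 192 ± 22.2 CPM in control libraries. Ly6c2, the monocyte marker Ly6C, was at 445, 216 and 216 CPM in Treg-depleted libraries and 105, 180.4 and 179 CPM in control libraries, without overlap but short of the threshold (0.92 ± 0.43, adjusted p = 0.617). Nos2 had 2, 2 and 6 counts in Treg-depleted libraries and 3, 1 and 0 in control libraries, too few for a test.

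Of the other called genes, Fxyd2, a regulator of the sodium pump, fell to 27.9, 42.0 and 32.3 CPM in Treg-depleted libraries, against 90.6, 82.6 and 73.3 CPM in control libraries (log2 -1.27 ± 0.19, adjusted p = 0.0144). Its call held in all 7 settings that keep every library and was lost without Treg-depleted replicate 1 or 3 or control replicate 1. Smox, an oxidase of the polyamine spermine, fell to 75.0, 72.2 and 81.0 CPM in Treg-depleted libraries, against 118, 131 and 134 CPM in control libraries (-0.75 ± 0.14, adjusted p = 0.0325). Pls3, an actin bundling protein, fell to 0.625, 2.33 and 1.77 CPM in Treg-depleted libraries, against 5.57, 7.55 and 9.40 CPM in control libraries (-2.26 ± 0.37, adjusted p = 0.017). Rbm3, an RNA-binding protein induced by cold, rose to 306, 359 and 408 CPM in Treg-depleted libraries, against 185, 227 and 207 CPM in control libraries (0.79 ± 0.14, adjusted p = 0.0255). Rsrp1 fell to 404, 396 and 393 CPM in Treg-depleted libraries, against 615, 578 and 604 CPM in control libraries (-0.59 ± 0.11, adjusted p = 0.0325). The non-coding genes Lncpint and 4930481A15Rik fell, by log2 changes of -2.01 ± 0.36 and -1.79 ± 0.33. Gm10524 and ENSMUSG00000121042 rose, by 2.88 ± 0.50 and 2.58 ± 0.45, from mean levels of 1.32 and 1.58 CPM in control libraries. The calls for Smox, Rsrp1, Lncpint, Gm10524, ENSMUSG00000121042 and Cd2 were lost whichever single library was left out, and those for Pls3, Rbm3 and 4930481A15Rik in 4 or 5 of the 6 cases. Gm10524, ENSMUSG00000121042 and 4930481A15Rik were picked after their values were seen.

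Col1a1, the main chain of fibrous collagen, fell (chromosome 11, 94936224 to 94953042). It was at 26.2, 18.2 and 22.7 CPM in Treg-depleted libraries, against 73.5, 44.5 and 47.5 CPM in control libraries (log2 -1.29 ± 0.20, adjusted p = 0.0155). Its call was lost with limma-voom and without Treg-depleted replicate 3 or control replicate 1. It stands in a list of fibroblast and mural cell markers, of which 1 of 19 fell and 10 were lower and 0 higher at an unadjusted p under 0.05. Those 20 markers summed to 178 to 255 CPM in Treg-depleted libraries and 286 to 473 CPM in control libraries (exact permutation p = 0.1). Col1a2 was at 41.0, 30.8 and 33.3 CPM in Treg-depleted libraries and 91.0, 51.9 and 59.7 CPM in control libraries (-0.94 ± 0.24, adjusted p = 0.176). Col3a1 was at 32.5, 25.5 and 24.4 CPM in Treg-depleted libraries and 74.5, 44.3 and 38.4 CPM in control libraries (-0.93 ± 0.21, adjusted p = 0.121). Muscle fibre markers summed to 125 to 160 CPM in Treg-depleted libraries and 162 to 188 CPM in control libraries (exact permutation p = 0.1, or 0.2 as CPM of TMM library sizes). Control replicate 1 was the highest for all 3 collagens, and the part of other cells' RNA in these results was not tested.

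**Figure D3:**
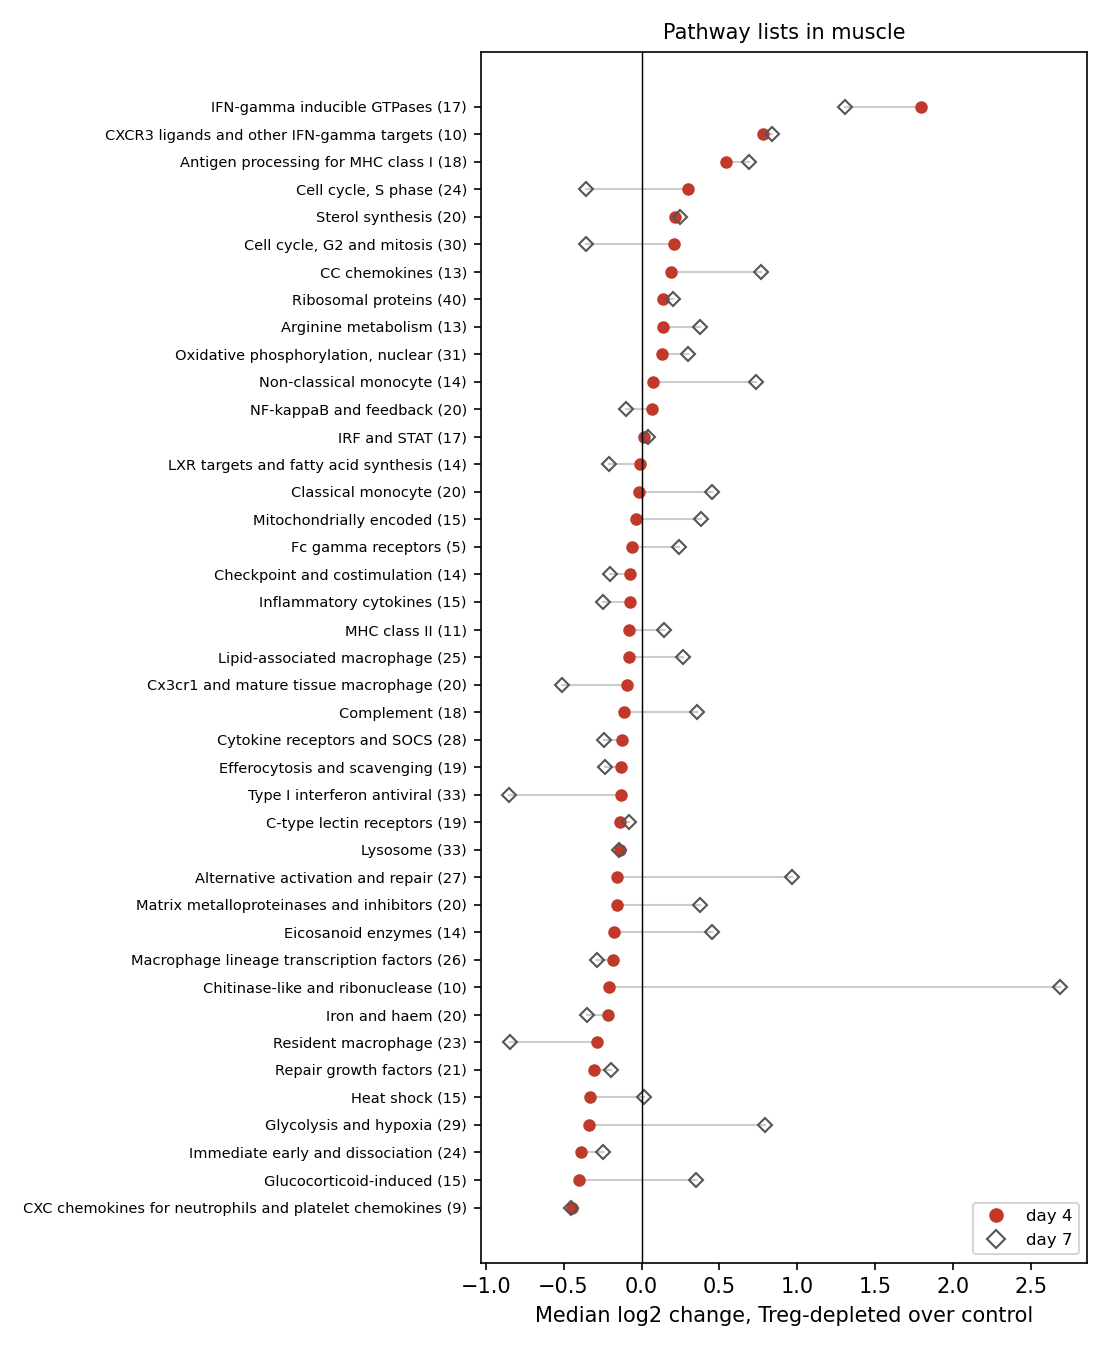
Median log2 change, Treg-depleted over control, of the tested members of each pathway list in muscle at day 4 (filled circles) and day 7 (open diamonds), with the number of members tested in brackets. At day 4 the GTPases lie at 1.79, the CXCR3 list at 0.78, MHC class I processing at 0.55 and the others between -0.44 and 0.30. At day 7 the chitinase-like list lies at 2.68, alternative activation at 0.97, glycolysis at 0.79, glucocorticoid-induced genes at 0.35 and type I interferon at -0.85, the 5 lists farthest from their day 4 median.

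Glycolysis and hypoxia genes were slightly lower at day 4. None of 29 was called, 12 were lower and 0 higher at an unadjusted p under 0.05, 27 were negative, and the median log2 change was -0.34 (DESeq2 1 lower, limma-voom 0). Slc2a1, the glucose transporter GLUT1, was at 28.7, 11.4 and 22.3 CPM in Treg-depleted libraries, against 35.7, 42.0 and 33.8 CPM in control libraries (-0.83 ± 0.24, adjusted p = 0.244). Aldoa, aldolase, was at 809.6, 845 and 1074 CPM in Treg-depleted libraries and 1141, 1318 and 1272 CPM in control libraries (-0.45 ± 0.15, adjusted p = 0.368). Treg-depleted replicate 3 was the highest of its group in 22 of the 29. The median was -0.21 with 5 lower at an unadjusted p under 0.05 without Treg-depleted replicate 2, 7 were lower without control replicate 2, and 20 without Treg-depleted replicate 3.

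The change at day 4 was set against that at day 7, to ask whether depletion acts alike early and late. At day 7 1109 of 12907 genes were called (8.59%), 603 higher and 506 lower. The difference between the 2 days' changes passed the test in 311 genes (2.41%), of which 106 had the higher log2 change at day 4 and 205 the lower. With scaling by total counts, the split was 195 and 138. That number was 197 and 191 without Treg-depleted replicates 2 and 3 and 198 and 167 without control replicates 1 and 2 of day 4. The groups of the 2 days do not share libraries.

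In 20 of 29 glycolysis genes the change was lower at day 4 than at day 7 by that test, and in 0 higher. At day 7 20 of 29 rose, with a median of 0.79. Aldoa had -0.45 at day 4 and 0.92 at day 7 (difference -1.37, adjusted p = 0.00197). Slc16a3, the lactate exporter, was at 109.7, 73.6 and 155 CPM in Treg-depleted libraries and 161, 204 and 168 CPM in control libraries at day 4, a log2 change of -0.65, and had 1.48 at day 7 (difference -2.14, adjusted p = 0.00625). Vegfa, the vessel growth factor that hypoxia induces, had -0.93 at day 4 and 1.58 at day 7 (difference -2.51, adjusted p = 0.0123).

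Chitinase-like and ribonuclease genes, many of them induced by IL-4 and IL-13, did not pass the test at day 4. Of 10 tested 0 were called (2 lower and 0 higher at an unadjusted p under 0.05; DESeq2 and limma-voom 0) and the median was -0.21. The 2 became 0 without Treg-depleted replicate 1 or 3 or control replicate 1, and the median was -0.10 without Treg-depleted replicate 3. At day 7 8 of 10 rose with a median of 2.68, and 8 differed between the days. Chil3, the chitinase-like protein Ym1, was at 127, 101 and 79.3 CPM in Treg-depleted libraries and 107, 73.9 and 152 CPM in control libraries at day 4, and the groups overlapped. Its log2 change was -0.12 at day 4 and 5.22 at day 7 (difference -5.33, adjusted p = 4.23e-07). Retnla, a further gene of alternative activation, was at 161, 532 and 253 CPM in Treg-depleted libraries and 1214, 715 and 442 CPM in control libraries at day 4 (-1.33 ± 0.47, adjusted p = 0.464), and rose at day 7 (1.84; difference -3.16, adjusted p = 0.0371). Arg1 had -0.41 at day 4 and 4.30 at day 7 (difference -4.71, adjusted p = 0.00814). Eosinophil markers also rose at day 7, when 6 of 6 tested were called. At day 4 0 were called, 4 were positive and 2 negative. Their median log2 change at day 4 was 0.59, against -0.21 for the chitinase-like list, a difference that was not tested. The part of eosinophil RNA in the chitinase-like result was not tested either. At day 4 the eosinophil markers summed to 28.0 to 37.3 CPM in Treg-depleted and 23.5 to 25.9 CPM in control libraries (exact permutation p = 0.1). Alox15 weighs most in this sum, with 178 counts over the Treg-depleted and 110 over the control libraries. Of the next largest, Siglecf had 83 and 58 counts, Ear1 71 and 100, and Ccr3 72 and 90. Epx, an eosinophil granule gene, had 0, 0 and 0 counts in Treg-depleted libraries and 0, 1 and 0 in control libraries at day 4.

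Cx3cr1, the fractalkine receptor of mature macrophages and patrolling monocytes, fell at day 7 and not at day 4. At day 4 it was at 294, 268 and 236 CPM in Treg-depleted libraries and 253, 314 and 242 CPM in control libraries (log2 -0.02 ± 0.13, adjusted p = 0.981). At day 7 it averaged 36.8 CPM in Treg-depleted and 182 CPM in control libraries, a log2 change of -2.31 (difference 2.29 ± 0.19, adjusted p = 3.87e-06). Of 20 genes of mature tissue macrophages 0 were called at day 4 (0 higher and 2 lower at an unadjusted p under 0.05, 0 lower without control replicate 1; DESeq2 and limma-voom 0), 7 fell at day 7 and 4 differed between the days, all with the higher change at day 4. Among resident macrophage genes 5 differed that way, such as Gas6, a bridge to apoptotic cells (-0.24 at day 4, -1.99 at day 7; difference 1.75, adjusted p = 0.00336). The type I interferon list had 22 of 33 lower at day 7 against 0 at day 4, and 3 of the differences passed the test.

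Chemokines split by day. Ccl12, Ccl2, Ccl7 and Ccl4 had the higher change at day 4, and Ccl6, Ccl9, Ccl11 and Ccl24 the lower. Ccl12 had 1.20 at day 4 and -0.14 at day 7 (difference 1.35 ± 0.29, adjusted p = 0.0214). Ccl24, an eosinophil chemokine, had -0.48 at day 4 and 3.20 at day 7 (difference -3.68, adjusted p = 5.55e-06). For the IFN-γ inducible GTPases no difference between the days passed the test: 7 of 17 rose at day 7, with a median of 1.31, and Tgtp1 had 1.88 at day 4 and 1.602 at day 7 (difference 0.28 ± 0.42, adjusted p = 0.856). Hspa1a fell on both days, by 2.51 at day 4 and 1.97 at day 7 on the log2 scale (adjusted p = 4.66e-07 at day 7), and Slc40a1 and Cd209a also fell on both.

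**Figure D4:**
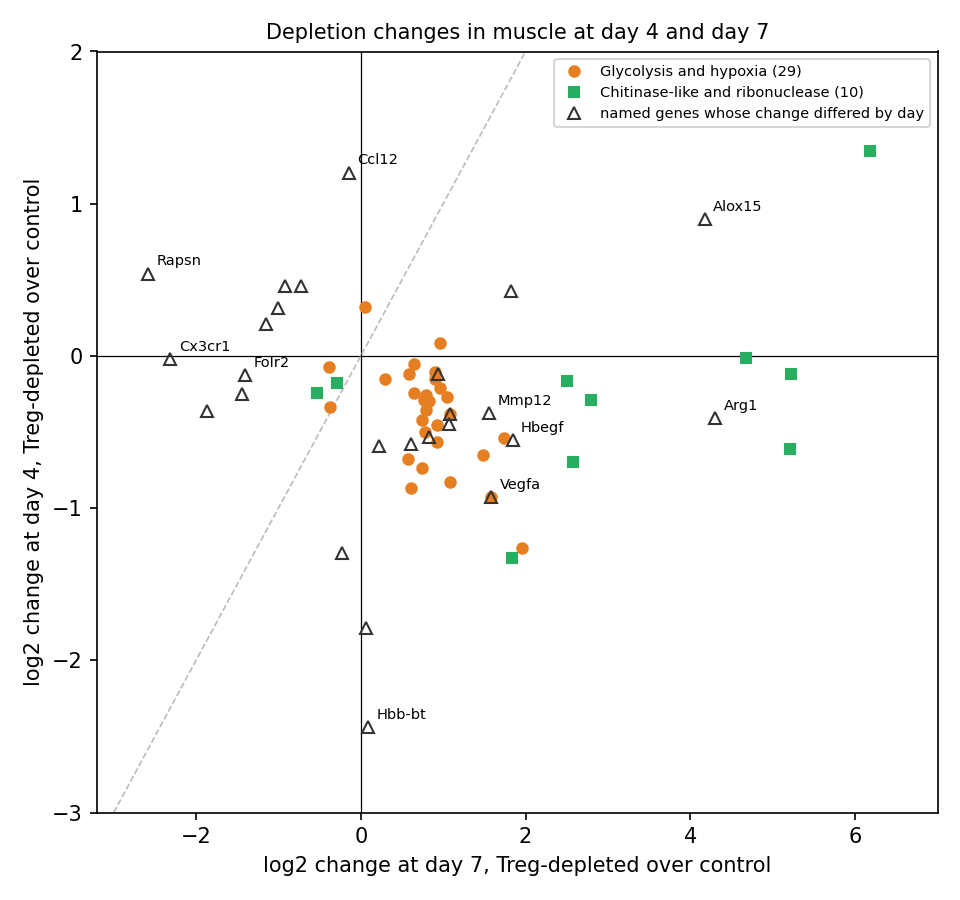
Log2 change, Treg-depleted over control, at day 4 (vertical) against day 7 (horizontal) for glycolysis genes, chitinase-like and ribonuclease genes, and named genes whose change differed between the days. The dashed line marks equal changes, and most glycolysis and chitinase-like genes lie to its right, above 0 at day 7 and below 0 at day 4.

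The same contrast in skin wounds at day 4 called 568 of 14340 genes (3.96%), 337 higher and 231 lower. The change differed between muscle and skin in 38 genes (0.265%), with 23 having the higher log2 change in muscle and 15 the lower. That number was 16 and 19 without muscle Treg-depleted replicates 2 and 3, and 11, 14 and 20 without muscle control replicates 1, 2 and 3. Hspa1a in skin had a mean of 319 CPM in Treg-depleted and 321 CPM in control libraries (log2 -0.01), so its change in muscle was lower (difference -2.50 ± 0.30, adjusted p = 2.77e-06). Hspa1b did likewise (0.14 in skin; difference -3.03 ± 0.46, adjusted p = 0.000295). Il6, an inflammatory cytokine, rose in skin by 3.15 (adjusted p = 6.8e-07). In muscle it was at 7.50, 6.07 and 9.07 CPM in Treg-depleted libraries and 12.2, 11.0 and 9.87 CPM in control libraries, a log2 change of -0.53 (difference -3.69 ± 0.60, adjusted p = 0.00112).

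Cx3cr1 fell in skin by 2.54 on the log2 scale at day 4, which muscle did not show (difference 2.52 ± 0.34, adjusted p = 3.09e-05). Lig1, a DNA ligase, was at 54.8, 40.4 and 46.5 CPM in Treg-depleted libraries and 32.4, 34.6 and 36.5 CPM in control libraries of muscle (0.45 ± 0.19), and fell in skin (-0.82; difference 1.27 ± 0.24, adjusted p = 0.00584). Smc2, a condensin subunit, had 0.25 in muscle and -0.96 in skin (difference 1.21 ± 0.22, adjusted p = 0.00313). Of 24 S phase genes in muscle at day 4 0 were called (7 higher and 0 lower at an unadjusted p under 0.05; DESeq2 and limma-voom 0), 22 were positive and the median was 0.30. In skin 6 of them fell, and 1 of the differences passed the test. The number at an unadjusted p under 0.05 in muscle was 2 to 7 with 1 library left out, the lowest without control replicate 2. Of 30 genes of G2 and mitosis in muscle at day 4 0 were called (1 higher and 0 lower at an unadjusted p under 0.05; DESeq2 and limma-voom 0), with a median of 0.21. In skin 13 of them fell, and 5 of the differences passed the test. The GTPases rose in skin in 13 of 17 cases, with a median of 1.42, and the difference between tissues passed the test for 0 of them and 0 of the MHC class I processing genes.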

How the data were processed

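RNA of sorted cells was made into 3′ libraries with a UMI of 10 bases from RNA with a RIN of at least 7, per the labels' protocols. The table holds estimated counts per gene deposited by the authors. The submitters' processing notes name STAR, featureCounts and limma, and both GRCm38 and GRCm39. Not given in the sources used here were versions, the annotation, strand and UMI collapsing. Values were rounded, since 19.4% of the non-zero ones were further than 0.01 from an integer. 57010 genes were listed and 12907 tested.

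Counts were tested in R 4.3.3 by edgeR 4.0.16, with filterByExpr, TMM scaling, a robust quasi-likelihood fit and Benjamini-Hochberg adjustment over all genes, with a threshold of 0.05. The 12 muscle libraries in 4 groups shared a fit, which also gave day 7 and the difference between days. Skin was compared in a fit of 44 libraries in 12 groups (14340 genes). Each SE was obtained by dividing the size of the log2 change by the root of its F statistic. Levels of genes are CPM of TMM library sizes, and summed levels CPM of total counts. Medians per library used log2(CPM + 0.5). Total counts per library, 4317235 to 6397434, limit precision for genes of a few CPM. Chi-square per degree of freedom between replicates was 6.24 or more, so none was taken as a copy of another.

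Settings changed in turn were RLE scaling, all genes kept, DESeq2 1.42.0, limma-voom (limma 3.58.1), a fit restricted to the libraries compared, a replicate block, and leaving out each muscle library of day 4. Scaling by total counts was added after the data were seen. Tests on simulated counts with 200 changed genes found 41% of 2-fold and 90% of 4-fold changes at muscle day 4 with 3 false calls, 17% and 73% with 7 for the difference between days, and 12% and 55% with 4 for that between tissues.

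The experiment and the 55 gene lists were chosen with earlier results of these data known. Named genes are those that passed the threshold with separate groups, a symbol that is not clone-based or predicted (such as Gm or Rik names) and a mean of 5 CPM or more in either group (15 per direction), up to 5 members of each list by adjusted p, a panel, and 6 per direction for each difference. Other genes in the text, such as Gm10524, ENSMUSG00000121042, 4930481A15Rik, Dnajb1, Fth1 and Ftl1, were picked after their values were seen. A gene was said to share sequence where a share of 0.05 or more of its words of 31 bases was also found in other genes of GENCODE M21 (GRCm38), which also gave coordinates. Promoters are RefSeq's. The heart table was not used here. One member of the interferon lists is counted in them but not reported here by itself.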

Additional observations from a re-analysis of the deposited data

Results flagged for a closer look

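Results are listed here because the effect of depletion differed between 2 days or tissues by a test of the difference itself (edgeR's quasi-likelihood test, adjusted p under 0.05). Such differences were found in 311 genes between muscle day 4 and day 7 and in 38 genes between muscle and skin at day 4.

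Values are the log2 change at muscle day 4 minus that at day 7. The higher change was at day 4 for Ccl12 (1.35), Fgd2 (1.18), Clec5a (1.37), Abcc3 (1.51), Slamf9 (1.32), Gpr137b (1.19), Rapsn (3.13), Tnf (1.37), Folr2 (1.27) and Cx3cr1 (2.29). The lower change was at day 4 for Col1a1 (-1.07), Hbb-bt (-2.53), 4930481A15Rik (-1.85), Rsrp1 (-0.81), Adam8 (-1.52), Ms4a8a (-1.18), Gatm (-1.40), Gpi1 (-1.47), Alox15 (-3.27), Vegfa (-2.51), Il6 (-1.36), Mmp12 (-1.93), Hbegf (-2.39), Arg1 (-4.71) and Itgam (-1.05). Of these, the changes at day 4 itself passed the test for Ccl12, Col1a1, Hbb-bt, 4930481A15Rik and Rsrp1. Adam8, a membrane protease, was at 195, 157 and 195 CPM in Treg-depleted libraries and 236, 265 and 246 CPM in control libraries at day 4 (log2 -0.45) and rose at day 7 (1.07).

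For the log2 change at day 4 in muscle minus that in skin, the values were -2.50 for Hspa1a, -3.03 for Hspa1b, -1.90 for Ms4a8a, -1.56 for Chka and -3.69 for Il6, and 1.07 for Tmem176a, 1.71 for Hells, 3.16 for Gmpr, 1.27 for Lig1, 1.21 for Smc2 and 2.52 for Cx3cr1. The adjusted p-values of Tmem176a, Hells and Gmpr were 0.0476, 0.0476 and 0.0461, and each of these lost its call without at least 5 of the 6 muscle libraries in turn. Gpi1, Gpr137b, Itgam, Hbb-bt, Hspa1a and Hspa1b share sequence with other genes.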

How the results depend on the processing

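The called genes at muscle day 4 numbered 20 (7 higher, 13 lower). They were 190 (75 and 115) with no filter on low counts, 93 (38 and 55) with DESeq2, 4 (1 and 3) with limma-voom, 24 (11 and 13) in a fit of the 6 libraries, 30 (12 and 18) with the replicate block and 18 (7 and 11) with total-count scaling. With 1 library left out they were 2 to 25 (0 to 17 higher, 2 to 10 lower). The difference between days, 311 genes (106 higher, 205 lower), became 583 (201 and 382) with no filter, 490 (161 and 329) with DESeq2, 192 (73 and 119) with limma-voom, 317 (109 and 208) with the replicate block, 333 (195 and 138) with total-count scaling and 167 to 248 (46 to 86 and 121 to 162) with 1 library left out. The difference between tissues, 38 (23 and 15), became 224 (92 and 132) with no filter, 39 (28 and 11) with the replicate block, 19 (12 and 7) with total-count scaling and 11 to 35 (6 to 18 and 5 to 17) with 1 library left out. DESeq2 was not run for it. The cause was not tested. Replicate numbers were not taken to pair the libraries, since the labels do not say that they do. Deviations of same-numbered libraries correlated at -0.049, 0.023 and 0.015, and not every library correlated best with its own number. Such correlations cannot show whether libraries were handled in pairs. Among uncalled values the sign turned with total-count scaling for Cx3cr1 (0.0233) and Adgre1 (0.0105) and, for Trem2, with limma-voom (-0.0197) and the block (-0.00934). With 1 library left out, uncalled log2 changes that turned ranged over -1.094 to 0.0268 for Arg1, -0.335 to 0.0573 for Folr2, -0.523 to 0.267 for Rn18s-rs5, -0.0142 to 0.535 for Il10, -0.276 to 0.0322 for Gdf3, -0.235 to 0.155 for Spp1, -0.245 to 0.142 for Gpnmb, -0.0380 to 0.111 for Cd68, -0.0953 to 0.104 for Cx3cr1, -0.0780 to 0.0878 for Adgre1 and -0.0993 to 0.191 for Trem2. The summed mitochondrial difference ranged over -1003 to 657 CPM. In simulated counts 41% of 2-fold changes were found, so smaller ones would mostly be missed in a design like this one. Whether depth or the number of libraries sets this limit was not tested.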
